A study of Homo sapiens with 24 samples.

Results

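To examine the chromatin of the mucin genes during TGFβ treatment and PHF13 depletion, peaks of 3 histone modifications were read at 9 mucin genes, MUC1, MUC2, MUC4, MUC5AC, MUC5B, MUC6, MUC13, MUC16 and MUC20, out of 20163 protein-coding genes in the annotation. The rule uses no measured value. For each, all annotated transcription start sites (TSSs, 3 to 9 per gene) were extended by 5 kb to each side and merged, which gave windows of 12465 to 44097 bp. The value of a gene in a library is the number of bp of its windows that lie under peaks, called covered bp here, and the rank of its best peak is given as a percent of the list, where 0% is the strongest peak by −log10 q. MUC6, MUC2, MUC5AC and MUC5B lie side by side on chromosome 11p15 (chr11:1007823-1288402 with 5 kb at each end, hg19) and were also read as 1 cluster.

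All libraries came from PANC-1, an established human cell line of pancreatic ductal carcinoma, and were made by chromatin immunoprecipitation and sequencing. Cells transfected with a control siRNA and left untreated (siControl) were compared with cells given the same siRNA and then TGFβ at 10 ng/ml for 48 h (siControl+TGFβ), a treatment that induces epithelial-to-mesenchymal transition, and with cells given an siRNA against PHF13 and the same TGFβ (siPHF13+TGFβ). The study asked whether PHF13, a reader of H3K4me3, is needed for the chromatin response to TGFβ, and had no group with siPHF13 but without TGFβ among these libraries. Each group had 2 libraries per modification, 18 in all, and since nothing states that they came from separate cultures, every p-value below measures the spread between libraries only. No RNA was analysed here, so neither mucin expression nor the loss of PHF13 was measured.

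Mucins are large glycoproteins whose middle part is a run of tandem repeats rich in serine and threonine, the residues that carry O-linked sugars. Secreted gel-forming mucins build the mucus layer of ducts, stomach and intestine, while membrane-bound mucins coat the apical surface of epithelial cells. H3K4me3 marks promoters, H3K27ac marks active promoters and enhancers, and H3K27me3 is the product of Polycomb repressive complex 2 and marks silenced genes.

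The sequences that the results below turn on are given first, read from GRCh37 5′ to 3′ on the strand of the gene. The first is the 250 bases upstream of the canonical start of MUC1, at chr1:155162707-155162956 (minus strand), with CG in capitals. H3K4me3 and H3K27ac lay upstream of this start in every list, but mostly beyond the printed bases. By list, the nearest edge of the peaks lay at -0.62 to -0.198 kb for H3K4me3 and -0.621 to -0.238 kb for H3K27ac.
MUC1: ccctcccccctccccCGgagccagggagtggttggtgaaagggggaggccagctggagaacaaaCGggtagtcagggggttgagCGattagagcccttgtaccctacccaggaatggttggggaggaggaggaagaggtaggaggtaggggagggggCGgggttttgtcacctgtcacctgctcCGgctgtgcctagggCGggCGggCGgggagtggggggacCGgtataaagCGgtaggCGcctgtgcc
The pair that follows compares the starts of MUC16, with and without H3K4me3, again as 250 upstream bases with CG in capitals. The start with the mark within 500 bp in all 6 lists is the first annotated start (chr19:9121067-9121316, minus strand). The canonical start without it lies within the gene (chr19:9092019-9092268, minus strand).
MUC16 first annotated start: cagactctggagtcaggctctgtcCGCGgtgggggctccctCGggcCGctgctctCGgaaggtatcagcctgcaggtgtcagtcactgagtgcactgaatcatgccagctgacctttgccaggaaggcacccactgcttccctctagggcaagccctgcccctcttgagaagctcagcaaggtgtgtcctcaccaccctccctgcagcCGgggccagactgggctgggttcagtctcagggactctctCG
MUC16 canonical start: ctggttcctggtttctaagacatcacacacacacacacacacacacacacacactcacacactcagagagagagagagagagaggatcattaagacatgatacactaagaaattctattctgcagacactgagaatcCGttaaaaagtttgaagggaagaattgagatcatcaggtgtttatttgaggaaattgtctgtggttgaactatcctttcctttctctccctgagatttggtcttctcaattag
The last is a stretch of the tandem repeat inside MUC2 over which peaks of all 3 modifications were called (chr11:1092974-1093249, plus strand, 276 bases), with capitals where a base equals the base 138 positions before it.
MUC2 repeat: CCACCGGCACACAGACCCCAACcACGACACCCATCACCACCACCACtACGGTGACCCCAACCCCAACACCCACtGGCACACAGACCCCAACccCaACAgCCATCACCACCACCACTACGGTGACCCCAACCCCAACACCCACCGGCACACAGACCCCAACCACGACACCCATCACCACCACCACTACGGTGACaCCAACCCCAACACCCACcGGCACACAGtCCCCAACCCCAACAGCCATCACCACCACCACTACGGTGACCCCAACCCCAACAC

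The mucin starts held few CG pairs. The median coding gene had 14 in the 250 bases before its start, whereas MUC1 had 11, MUC5AC 9, MUC2, MUC4 and MUC5B 7 each, MUC13 5, MUC20 3 and the canonical start of MUC16 1. MUC6 was the exception with 19. The first annotated start of MUC16, the one with H3K4me3, held 7 CG pairs. The letters CACCTG, an E-box that repressors of the SNAI and ZEB families can bind, were searched on both strands (CAGGTG on the other), and occurred 2 times before the starts of MUC1 and of MUC20, which 2.55% of 20138 coding promoters of this length matched or exceeded. MUC5B, MUC6 and each of the MUC16 starts held 1 match, a count reached by 18.4% of promoters, and MUC2, MUC4, MUC5AC and MUC13 held 0.

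The libraries differed within groups. Lists held 27869 to 39202 H3K4me3 peaks, 6004 to 36104 H3K27ac peaks and 59573 to 165717 H3K27me3 peaks, and the shortest list of every modification was siPHF13+TGFβ replicate 1, followed for H3K27me3 by siControl replicate 1 with 98211. Depth is unknown from peak lists, and a deeper or cleaner library gives more and wider peaks. The names of the peaks in the lists labelled siPHF13+TGFβ carry the tag NCT, which the study uses for siControl+TGFβ, and those in the lists labelled siControl+TGFβ carry 3AT. Groups follow the labels, and if these 2 groups were exchanged, every direction between them would reverse and every comparison of siControl+TGFβ with siControl would be one of siPHF13+TGFβ with siControl. The line was checked against cell type markers. Of 7 epithelial genes of the pancreas, 6 to 7 had H3K4me3 in each list, and all 5 genes of a mesenchymal state had it as well (H3K27ac at 3 to 6 and at 2 to 4 of them), against H3K4me3 at 0 to 3 of 6 acinar and endocrine genes and 1 to 3 of 5 blood cell genes. The defining markers were not all active, since CDH1 had no H3K27ac in any list and H3K27me3 in 5, and FN1 no H3K27ac and H3K27me3 in all 6.

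Most of the 9 mucin genes had H3K27me3 somewhere in their windows. H3K27me3 peaks lay in the windows of 7 of 9 genes in all 6 lists (all but MUC1 and MUC16), against 23.2% of coding genes. Within 500 bp of the canonical start (5′ start for MUC5AC), H3K27me3 lay in 6 lists at MUC6, 5 at MUC4 and 4 at MUC2. At the other genes of these 7 it lay there in 2 lists (MUC5B), 1 (MUC13) and 0 (MUC5AC and MUC20). The count of 7 became 1 with peaks of −log10 q of at least 3 alone, and 2 with windows around the 5′ end of each gene alone. The share of coding genes was not computed at these settings. Coding genes with H3K27me3 in at least 2 lists fell from 8593 to 1086 and to 7784, in that order. H3K4me3 was present in all 6 lists for 4 genes (MUC1, MUC5AC, MUC5B and MUC16), against 73.3% of coding genes, and H3K27ac for 2 genes (MUC1 and MUC5AC), against 21.7%. H3K4me3 was covered in at least 2 lists at 7 genes, H3K27ac at 5 and H3K27me3 at 8, and these entered the tests below. In siControl cells, genes were classed by the marks present in both libraries. MUC1 had H3K4me3 and H3K27ac, MUC5AC and MUC5B had all 3 modifications, and MUC16 had H3K4me3. MUC4, MUC13 and MUC20 had H3K27me3, and MUC2 and MUC6 had H3K27ac and H3K27me3. The last class was met by 15 of 20163 coding genes (0.0744%). However, siControl replicate 2 also had H3K4me3 at MUC2, MUC6, MUC4 and MUC20 (529, 509, 623 and 476 bp). In the same replicate MUC16 had H3K27me3 (4793 bp) and MUC20 had H3K27ac (164 bp). In siControl+TGFβ, MUC2 and MUC6 had all 3 modifications in both libraries, a class of 10.2% of coding genes.

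**Figure D1:**
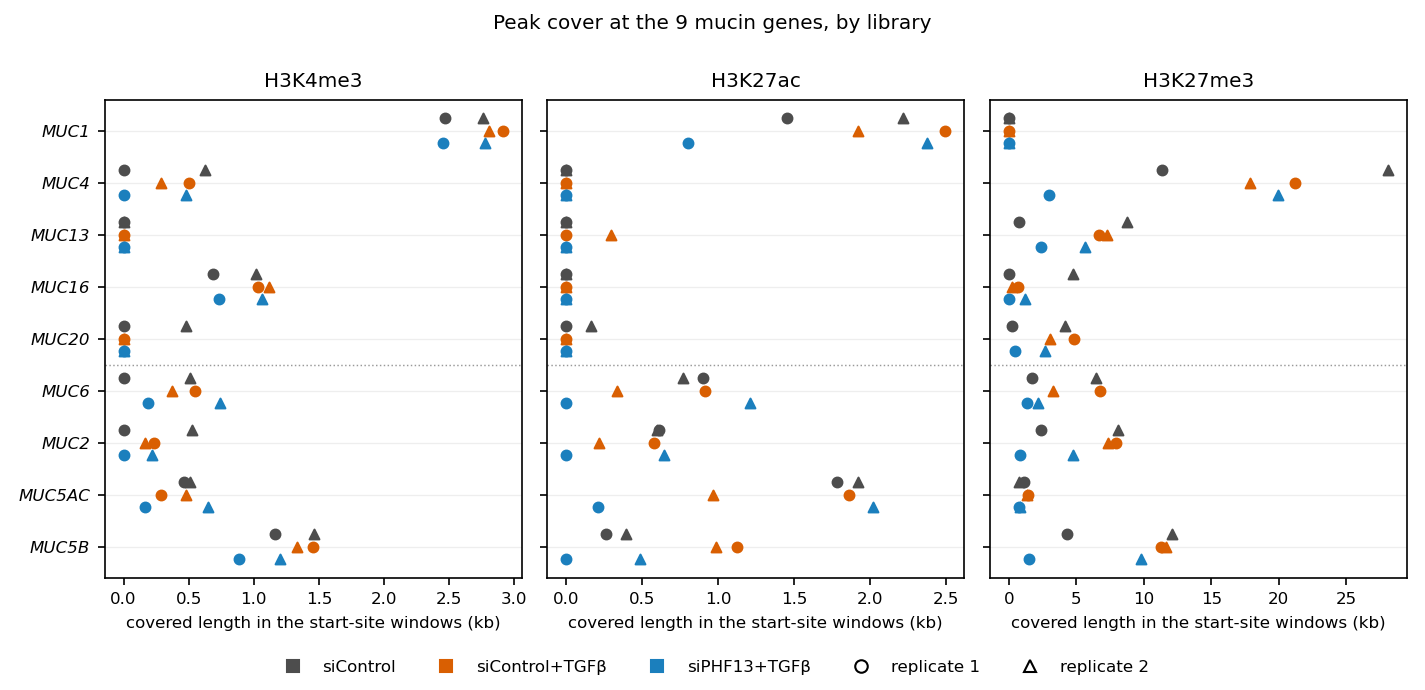
Covered length in the start-site windows of the 9 mucin genes (x axis, kb; scales differ between panels) for H3K4me3, H3K27ac and H3K27me3, with 1 point per library, coloured by group and shaped by replicate; genes above the dotted line are membrane-bound or cell-surface mucins and those under it are the 4 genes of the 11p15 cluster. Among the 9, MUC1 had the longest H3K4me3 cover and none of H3K27me3, and MUC4 had the longest H3K27me3 cover, up to 28081 bp.

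MUC1 (chr1:155158300-155162707, minus strand), a membrane mucin of most glandular epithelia that is overproduced in many carcinomas, had the most H3K4me3 of the 9 genes and was the only one of them without H3K27me3. Its H3K4me3 cover was 2467 and 2757 bp in the siControl lists, 2912 and 2802 bp in the siControl+TGFβ lists and 2454 and 2774 bp in the siPHF13+TGFβ lists. All of this lay in 1 region (chr1:155162904-155165823, joined over the 6 lists) that ran from position -198 relative to the canonical start to position -3117, so that 0 bp of the gene body was covered. It came within 500 bp of the canonical start in 4 of 6 lists, the exceptions being siControl replicate 1 and siPHF13+TGFβ replicate 1. Both siControl+TGFβ libraries were above all 4 others, although by little. The H3K27ac cover, in the same region, was 1453 and 2217 bp, then 2495 and 1919 bp, then 804 and 2375 bp in the same group order, and the groups overlapped. The best H3K27ac peak ranked between 11.3% and 17.3% in every list, including the list of 6004 peaks, while the best H3K4me3 peak ranked between 13.2% and 35.9%. Of the 2920 bp of H3K4me3, 2495 bp also lay under H3K27ac. The region is not the property of MUC1 alone, since the annotated start of MIR92B and that of the antisense RNA THBS3-AS1 lie in it, and peaks cannot be assigned among them.

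MUC16 (chr19:8959520-9121066, minus strand), the very large membrane mucin that carries the CA125 antigen, had H3K4me3 far upstream of its canonical start. The mark covered 683 and 1014 bp in the siControl lists and 1033 and 1117 bp in the siControl+TGFβ lists. In the siPHF13+TGFβ lists it covered 735 and 1061 bp. It lay in 1 region (chr19:9120055-9121296, joined over the 6 lists) that spans the first annotated start at 9121066. However, all 683 bp in siControl replicate 1 and 734 of 735 bp in siPHF13+TGFβ replicate 1 lay inside the gene. No H3K4me3 peak lay within 500 bp of the canonical start at 9092018 in any list. The region ranked between 34.7% and 49.2% of its lists, and the siControl+TGFβ libraries were above both siControl libraries. H3K27ac was absent from the windows of MUC16 in all 6 lists, a pairing with H3K4me3 in all lists that 2000 of 14789 coding genes shared (13.5%). H3K27me3 covered 0 and 4793 bp in the siControl lists, 715 and 227 bp in the siControl+TGFβ lists and 0 and 1216 bp in the siPHF13+TGFβ lists, shared 0 bp with the H3K4me3 region, and, over the whole gene, lay downstream of the canonical start apart from 188 bp in siControl replicate 2. Where present, the best of these peaks ranked within the top 0.722% to 1.87% of its list.

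**Figure D2:**
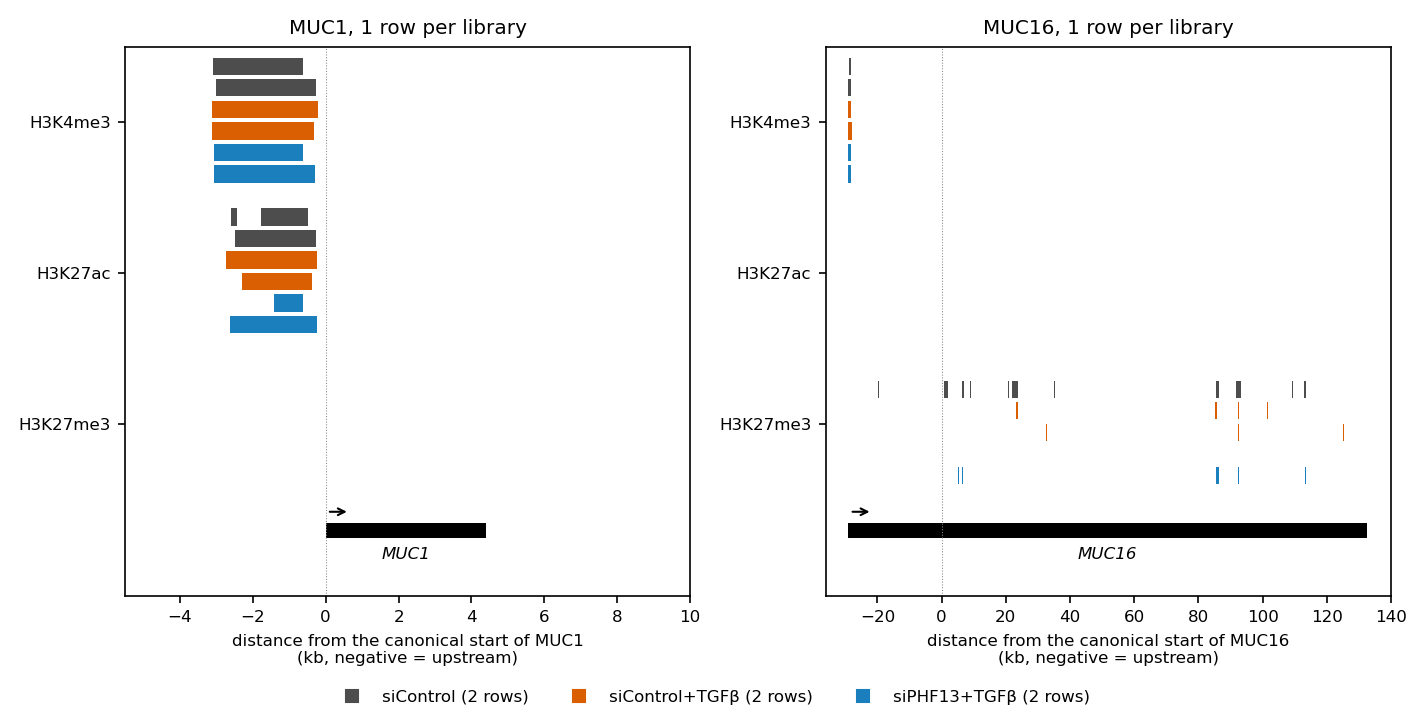
Peaks at MUC1 (left) and MUC16 (right) in each library, with 1 row per library, 2 rows per group and the 3 modifications as blocks; the x axis is the distance in kb from the canonical start and negative values are upstream. H3K4me3 at MUC1 starts at position -198 and extends away from the gene, whereas at MUC16 it lies at the far first annotated start in all 6 lists and not at the canonical start.

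MUC4 (chr3:195473636-195538844, minus strand), a membrane mucin that binds ERBB2, was the most widely covered by H3K27me3 among the 9 genes. Covered length in its windows was 11368 and 28081 bp in the siControl lists, 21216 and 17839 bp in the siControl+TGFβ lists and 2988 and 19928 bp in the siPHF13+TGFβ lists. Over the whole gene of 65209 bp, 30.5% and 65.7%, 49.6% and 45.2%, and 9.22% and 52.7% were covered in the same order, levels that only 6.04% to 8.33% of coding genes reached in the same list. The canonical start itself was under H3K27me3 in 5 of 6 lists, the exception being siPHF13+TGFβ replicate 1. H3K27ac was absent from all lists, and H3K4me3 covered 0 and 623, then 499 and 288, then 0 and 482 bp, mostly near the 3′ end of the gene and all 839 bp that carried H3K4me3 in any list also carried H3K27me3 in some list.

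MUC13 (chr3:124624289-124672663, minus strand), a membrane mucin of the intestine and stomach, and MUC20 (chr3:195447755-195467994, plus strand), a cell-surface mucin next to MUC4 on chromosome 3, were alike in their marks. H3K27me3 covered 756 and 8743 bp of the MUC13 windows in the siControl lists, 6672 and 7306 bp in the siControl+TGFβ lists and 2374 and 5620 bp in the siPHF13+TGFβ lists, with 0 bp of H3K4me3 in every list and 295 bp of H3K27ac in siControl+TGFβ replicate 2 alone. At MUC20 the values were 213 and 4187, then 4869 and 3039, then 498 and 2669 bp, with H3K4me3 and H3K27ac seen in siControl replicate 2 alone, at the weak end of its lists (97.6% and 96.0%). At both genes the siPHF13+TGFβ libraries lay under both siControl+TGFβ libraries and overlapped siControl. MUC20 and MUC4 are transcribed toward each other, and the H3K27me3 of the body of MUC20 ran into that of MUC4 (chr3:195460210-195474510 and chr3:195461888-195477083), so these genes are not separate observations. Sequences of 31 bases found more than once in the genome made up 47.2% of the MUC20 windows and 30.2% of the MUC4 windows. Copies inside the same windows were counted. Reads there may be shared among near-identical copies, so the peaks are uncertain.

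**Figure D3:**
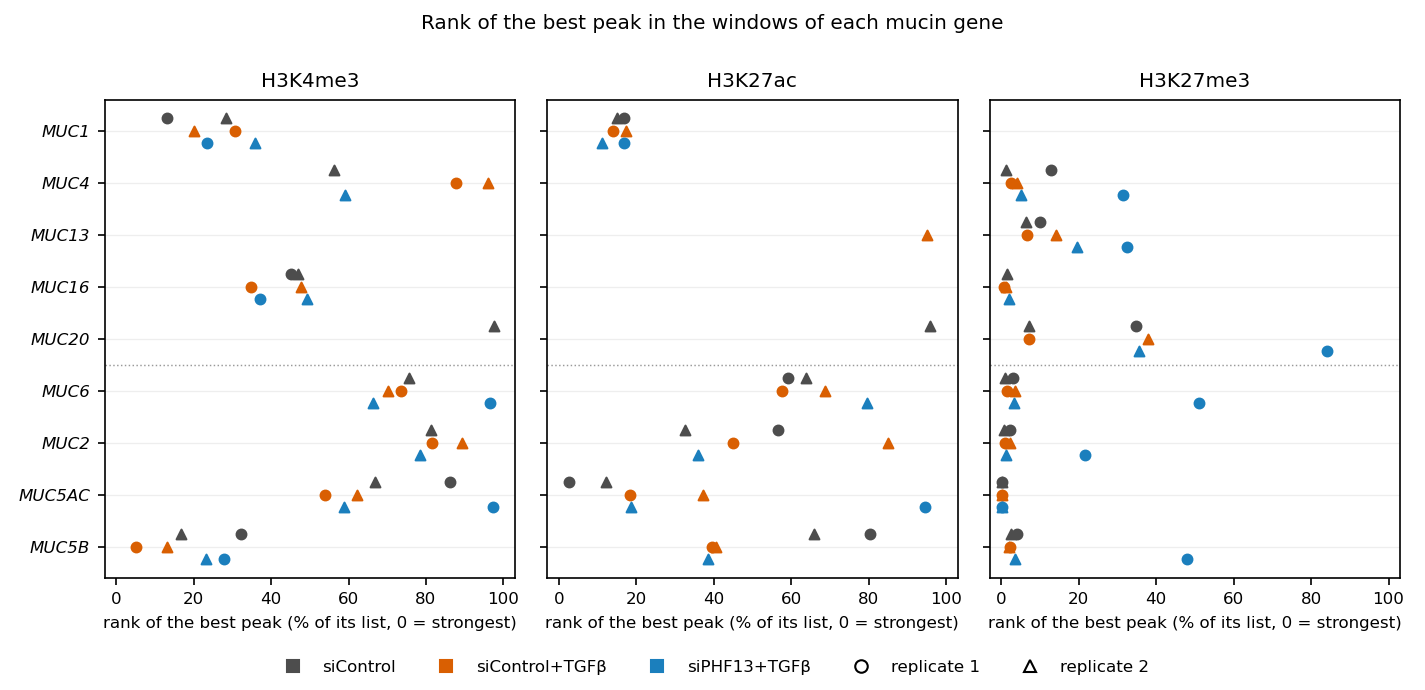
Rank of the best peak in the windows of each mucin gene (x axis, percent of the list, 0 is the strongest), by library, group and modification; a library without a peak has no point. H3K27ac at MUC1 lies between 11.3% and 17.3% in all 6 lists, and H3K27me3 at MUC5AC lies within the top 0.168% in all 6.

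The gel-forming mucins of the 11p15 cluster were examined next. MUC2 (chr11:1074875-1104416, plus strand), the main intestinal gel mucin, had H3K27me3 over 2401 and 8099 bp of its windows in the siControl lists, 7925 and 7352 bp in the siControl+TGFβ lists and 873 and 4760 bp in the siPHF13+TGFβ lists. Both siPHF13+TGFβ libraries lay under both siControl+TGFβ libraries. Of the gene body, 10.5% to 55.7% was covered, a share that 6.24% to 9.64% of coding genes reached in the same list. The canonical start of MUC2 had H3K27me3 within 500 bp in 4 of 6 lists and neither of the active marks in any.

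MUC6 (chr11:1012823-1036718, minus strand), a gel mucin of stomach glands and pancreatic ducts, was the gene of the cluster whose canonical start was fully under H3K27me3 in every list, to 500 bp on each side, in a region of 4130 bp (chr11:1034423-1038552). In its windows, H3K27me3 covered 1706 and 6471 bp in the siControl lists, 6787 and 3271 bp in the siControl+TGFβ lists and 1392 and 2180 bp in the siPHF13+TGFβ lists. The latter group again lay under siControl+TGFβ. MUC6 also had, among the 9 genes, the most CG pairs before its start.

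MUC5B (chr11:1244296-1283402, plus strand), the gel mucin of airways and salivary glands, had H3K27me3 over 4329 and 12109, then 11264 and 11622, then 1470 and 9765 bp of its windows in siControl, siControl+TGFβ and siPHF13+TGFβ. H3K4me3 covered 1166 and 1461, then 1451 and 1333, then 887 and 1203 bp, and H3K27ac 261 and 393, then 1121 and 983, then 0 and 484 bp in that order. MUC5B was the only one of the 9 genes with more H3K27ac in both siControl+TGFβ libraries than in both siControl libraries, and H3K27ac in siPHF13+TGFβ lay under both siControl+TGFβ libraries. However, neither active mark was within 500 bp of the canonical start. Most of both lay in a region that begins near the 3′ end of the gene and runs past it (chr11:1283150-1284490), from 38854 bp downstream of the start onward. Inside the gene, H3K4me3 covered only 17 to 420 bp and H3K27ac 0 to 144 bp, by list. In this region the H3K4me3 peak ranked between 5.02% and 32.1% and reached a fold enrichment of 7.04 to 11 over input.

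MUC5AC (chr11:1151580-1222364, plus strand), the gel mucin of the stomach and airways that appears in pancreatic ductal lesions, was the only one of the 9 genes with all 3 modifications in all 6 lists. The H3K4me3 cover was 462 and 509 bp in the siControl lists, 284 and 481 bp in the siControl+TGFβ lists and 165 and 649 bp in the siPHF13+TGFβ lists, and that of H3K27ac was 1782 and 1917, then 1859 and 969, then 210 and 2021 bp. Groups overlapped for H3K4me3 and H3K27ac. None of the 3 modifications lay within 500 bp of the 5′ start of the gene at 1151580. Active marks lay upstream, in an H3K4me3 region at positions -6816 to -4673 relative to the start (chr11:1144764-1146907) and in H3K27ac regions at positions -6670 to -4792 and -4443 to -2854. Others lay inside the gene just after a gap in the build, with H3K27ac in 5 lists (chr11:1212790-1213359, best rank 2.61%) and H3K4me3 in 4. Over the whole of the upstream H3K4me3 region, part of which is outside the windows, H3K4me3 covered 1193 and 2014, then 2009 and 1763, then 637 and 2028 bp.

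The H3K27me3 of MUC5AC was short but ranked high. It covered only 1164 and 782 bp in the siControl lists, 1410 and 1376 bp in the siControl+TGFβ lists and 730 and 815 bp in the siPHF13+TGFβ lists, but its best peak ranked within the top 0.0501% to 0.168% of its list in every library, with a fold enrichment of 7.40 to 11.6 over input. MUC5AC was the only one of the 9 genes at which siControl+TGFβ was above siControl for H3K27me3, and siPHF13+TGFβ lay under siControl+TGFβ. The region (chr11:1212785-1214200) lies just after a gap of 50000 unknown bases in GRCh37 (chr11:1162760-1212759), which replaces the middle of the gene. No peak can be called in the gap, and reads from the missing repeats have no place of their own in this build.

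Bases that carried peaks of all 3 modifications, each pooled over its 6 lists, were found in the windows of MUC2 (559 bp), MUC5AC (225 bp) and MUC6 (991 bp) and in those of none of the other six, that is in 3 of 9 genes against 3.10% of coding genes (625 of 20163). These genes were singled out after the values were seen. The 4 such stretches in the cluster, 1775 bp in all, lay inside the genes. In MUC2 the stretch (chr11:1092865-1093423) lay in an H3K4me3 region of 585 bp that holds the repeat printed above. In that region 95.7% of bases equalled the base 138 positions before, and 73.0% of its 31-base sequences occurred again in the genome. At the edge of the gap in MUC5AC (chr11:1212813-1213037) the spacing was 96 bases, 96.9% of bases were equal and 49.7% of 31-base sequences occurred again. Within MUC6 the stretches were chr11:1016725-1017031 and chr11:1017263-1017946, where 54.9% and 21.7% of 31-base sequences occurred again, and the H3K27ac region around both matched itself at a spacing of 507 bases for 68.2% of bases. The share was 0 to 3.08% in the H3K27ac regions upstream of MUC5AC and at the 3′ end of MUC5B. In MUC4, however, it was 70.6% and 79.8% in regions with H3K27me3 in 4 lists (chr3:195507096-195507601 and chr3:195511263-195511950). Neither H3K4me3 nor H3K27ac lay in those MUC4 regions in any list. All H3K27ac of MUC2 and of MUC6 lay in the regions around the stretches under all 3 modifications. For MUC2 its length was 609 and 598 bp in the siControl lists, 580 and 213 bp in the siControl+TGFβ lists and 0 and 643 bp in the siPHF13+TGFβ lists, and that of H3K4me3 was 0 and 529, 236 and 161, and 0 and 218 bp. For MUC6 H3K27ac was 902 and 771, 916 and 334, and 0 and 1207 bp, and H3K4me3 was 0 and 509, 552 and 372, and 188 and 743 bp in the same order, of which the 188 bp lay outside the gene. The active marks by which MUC2 and MUC6 were classed above thus lay away from their canonical starts. Further annotated starts lie beside the stretches in MUC2 (1092822 and 1093678), MUC6 (1016153) and MUC5AC (1212760). That of MUC5AC is the first base after the gap. That of MUC6 is 572 bp from the nearest H3K4me3 region and 466 bp from the H3K27ac region. The part of shared reads in these peaks was not tested.

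**Figure D4:**
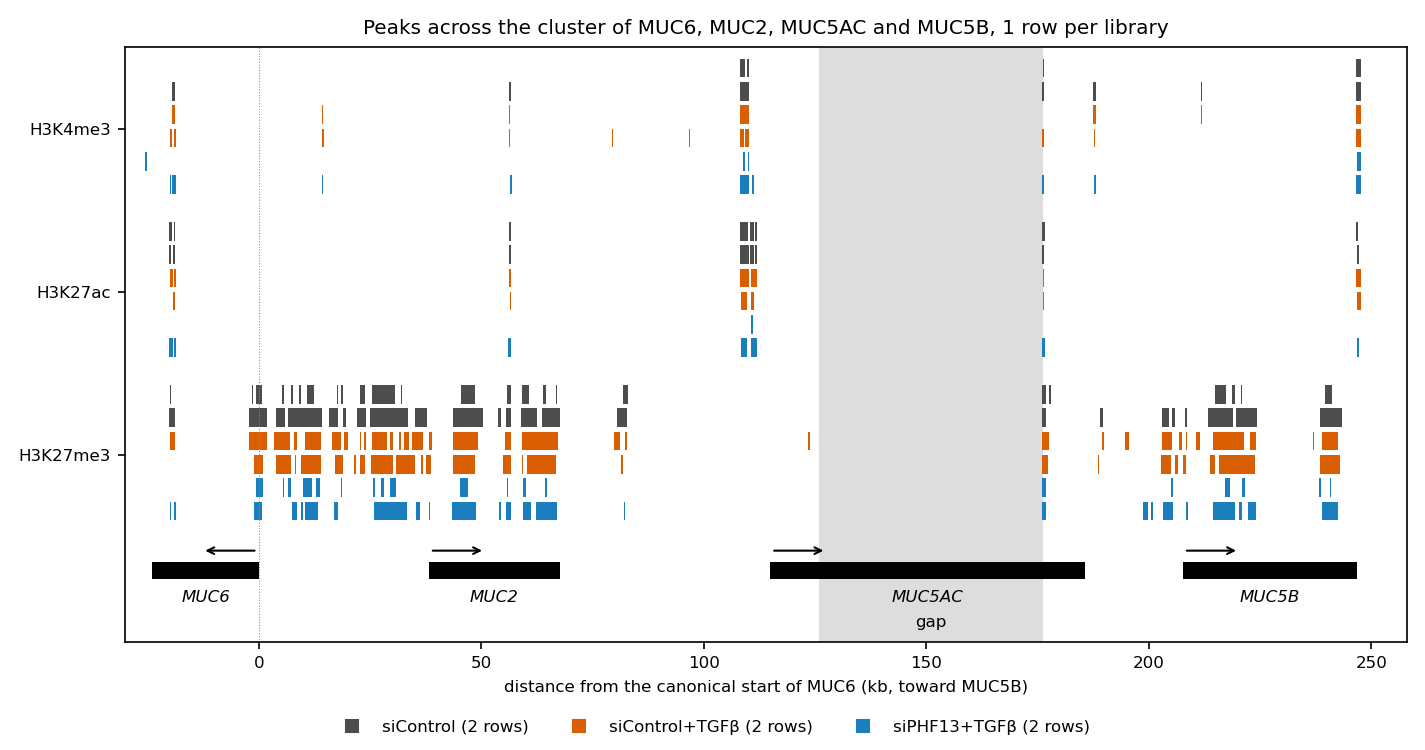
Peaks across the 11p15 cluster in each library, with 1 row per library, 2 rows per group and the 3 modifications as blocks; the x axis is the distance in kb from the canonical start of MUC6, arrows show the direction of transcription and the grey band is the 50000-base gap in GRCh37. H3K4me3 and H3K27ac overlap in a few places (repeats of MUC6 and MUC2, upstream of MUC5AC, the edge of the gap and the 3′ end of MUC5B). H3K27me3 spreads over MUC2 and MUC5B, whereas at MUC6 it lies mainly at and upstream of the canonical start.

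Over the whole cluster of 280580 bp, H3K27me3 covered 24652 and 68352 bp in the siControl lists, 60437 and 57713 bp in the siControl+TGFβ lists and 13993 and 45413 bp in the siPHF13+TGFβ lists. Cover in both siPHF13+TGFβ libraries was shorter than in both siControl+TGFβ libraries, a log2 difference of -1.22 with a pooled SD of 0.85 (exact two-sided permutation test, p = 0.333, which is the lowest value possible with 2 against 2). For siControl+TGFβ against siControl the difference was 0.52 ± 0.73 (pooled SD, exact permutation p = 1). H3K4me3 covered 2533 and 5234, then 5167 and 4743, then 1712 and 5091 bp, with differences of 0.43 ± 0.51 for TGFβ (exact permutation p = 1) and -0.72 ± 0.76 for depletion (exact permutation p = 0.667). H3K27ac covered 5179 and 5322, then 6146 and 3944, then 210 and 5829 bp, with differences of -0.09 ± 0.31 (exact permutation p = 1) and -1.89 ± 2.15 (exact permutation p = 0.667). None of these exceeded the spread between libraries, except that of H3K27me3 with depletion, which could not pass the threshold at this number of libraries. Removing siPHF13+TGFβ replicate 1 turned the depletion differences to 0.040 for H3K4me3 and 0.24 for H3K27ac and left -0.38 for H3K27me3.

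The cluster was then set against the total that each list covers. Per Mb of genome under H3K27me3, the cluster held 235 and 233 bp in the siControl lists, 362 and 302 bp in the siControl+TGFβ lists and 288 and 240 bp in the siPHF13+TGFβ lists, so that siControl+TGFβ was above both other groups without overlap. For H3K27ac the values were 470 and 309, then 193 and 210, then 111 and 202 bp, with siControl above both other groups. For H3K4me3 the values were 86.3 and 142, then 126 and 127, then 68.9 and 146 bp, and the groups overlapped. On this scale the log2 differences were 0.50 and -0.33 for H3K27me3 and -0.92 and -0.43 for H3K27ac, for TGFβ and depletion. With 2 against 2 libraries, an exact permutation test could not go below p = 0.333 here either.

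**Figure D5:**
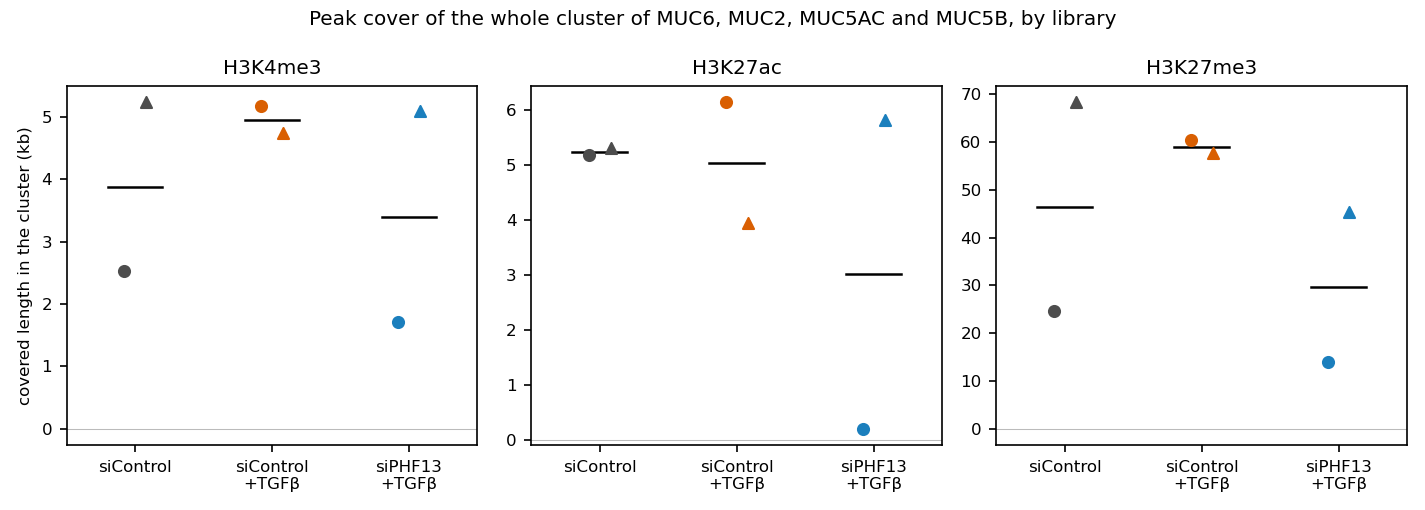
Covered length of the 11p15 mucin cluster (y axis, kb; scales differ between panels) by group for H3K4me3, H3K27ac and H3K27me3; each point is a library, circles are replicate 1, triangles replicate 2 and the line is the mean of the 2 libraries. In siPHF13+TGFβ, replicate 1 lies far under replicate 2 for all 3 modifications.

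To ask how the mucin genes compare with other genes between conditions, the genes at which both libraries of one group lay above both of the other were counted. With TGFβ, H3K4me3 was longer in both libraries at 2 of 7 mucin genes (MUC1 and MUC16), against 47.4% of 15616 coding genes tested, and shorter at 0, against 2.04%. With depletion it was shorter at 2 of 7 (MUC1 and MUC5B), against 62% of coding genes, and longer at 0, against 0.269%. H3K27ac with TGFβ was longer at 1 of 5 (MUC5B), against 56.3% of 12727 coding genes, and shorter at 1 of 5 (MUC2), against 0.0786%. The MUC2 value rests on its repeat. With depletion H3K27ac was shorter at 1 of 5 (MUC5B), against 10.1%, and longer at 0, against 0.0236%. H3K27me3 with TGFβ was longer at 1 of 8 (MUC5AC), against 6% of 8593 coding genes, and shorter at 0, against 7.19%. With depletion H3K27me3 was shorter at 6 of 8 (MUC2, MUC5AC, MUC5B, MUC6, MUC13 and MUC20), against 29.9%, and longer at 0, against 1.12%. With peaks of −log10 q of at least 3 the 6 became 3, while the coding genes tested fell from 8593 to 1086 and their share was not computed. The 29.9% is over unlike genes, since 7 of the 8 mucin genes had H3K27me3 in all 6 lists, against 4685 of the 8593. Its value among those 4685 was not computed. Moreover, MUC2, MUC5AC, MUC5B and MUC6 lie in 1 cluster and are not separate observations. For each single gene the exact permutation test could not go below p = 0.333.

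None of the 9 mucin genes passed the test across all genes. On log2(covered bp + 100) with limma, H3K4me3 was called higher with TGFβ at 19 coding genes (0.122%) and lower at 0, and with depletion higher at 1 (0.0064%) and lower at 20 (0.128%), with none of the 7 mucin genes among them and adjusted p from 0.41 to 0.95 over both comparisons. The H3K4me3 difference with TGFβ was 0.13 ± 0.11 (SE) for MUC1 and 0.33 ± 0.24 for MUC16. H3K27ac was called at 0 genes in either comparison, with 96 genes at an unadjusted p under 0.05 for TGFβ and 9 for depletion, and H3K27me3 at 0 genes, with 31 higher and 130 lower at an unadjusted p under 0.05 for TGFβ and 11 higher and 181 lower for depletion. None of the 9 genes was among those at an unadjusted p under 0.05 for any modification. The H3K27ac difference of MUC5B was 1.45 ± 1.52 with TGFβ and -2.25 ± 1.52 with depletion (limma adjusted p = 0.98 and 0.70). Median differences of the mucin genes with depletion were -1.35 for H3K27me3, -0.84 for H3K27ac and -0.25 for H3K4me3, beside -0.94, -1.41 and -0.23 over all genes tested. With TGFβ they were 0.58, -0.43 and 0.24, beside 0.09, 0.60 and 0.13. In simulated data with these spreads, a change of 1 on the log2 scale was recovered for 27% of changed genes for H3K4me3. For H3K27ac and H3K27me3 it was recovered for 0%. The noise was drawn for each gene separately, so shifts shared by a whole library were not simulated. These percentages hold for that setting alone and do not give the detection limit in the real lists.

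Genes whose cover was most alike were looked for over all 18 lists, by the mean absolute difference in percent of the window covered, among mucins with a peak in at least 9 lists. MUC1 was nearest to TEN1-CDK3 (0.758 percentage points), MUC16 to CES1 (0.472), MUC4 to ADGRD1 (1.31), MUC2 to C1orf167 (1.59), MUC6 to NECAB2 (1.75), MUC5B to PSD4 (1.77) and MUC5AC to PAX8 (2.04). Among the 9, MUC2 and MUC5B were each other's nearest (3.60), and MUC13 and MUC20, with peaks in 7 and 8 lists, differed by 1.54. MUC1 was farthest from any other of the 9, at 10.8 from MUC5AC.

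The genes that act on mucins were described from lists by role, with none called by limma for any modification. Among 20 genes of mucin O-glycosylation, 17 had H3K4me3 in all 6 lists, 3 had H3K27ac in all and 7 had H3K27me3 in all. C1GALT1C1, the chaperone of the core 1 synthase, and C1GALT1, that synthase, had the best mean H3K27ac ranks (8.36% and 13.4%), followed by GALNT7, a transferase of the first sugar (26.9%), while GALNT3, GALNT14 and GCNT3, a core 2 and core 4 branching enzyme of mucins, had H3K27me3 in all lists and no H3K27ac. H3K4me3 was present in 6 lists at GALNT3 and GALNT14 and in 0 at GCNT3. Of 10 trefoil and mucus proteins, 2 had H3K4me3 in all lists and 5 had H3K27me3 in all. AGR2, a disulfide isomerase that folds gel mucins, was the one with H3K27ac in at least 4 lists (mean rank 30.5%), whereas CLCA1, ZG16 and ERN2 had H3K27me3 in all lists and no H3K27ac. Of 16 regulators of mucin genes, 13 had H3K4me3 in all lists and 8 had H3K27me3 in all. FOXA3 (21.7%), the receptor gene EGFR (22.6%) and FOXA2 (41.4%) led by H3K27ac, although FOXA2 and FOXA3 also had H3K27me3 in all 6 lists. The hepatic factor HNF4A and the intestinal factor CDX2 had H3K27me3 in all lists and no H3K27ac. They differed in H3K4me3, present in 6 lists at CDX2 and in 0 at HNF4A.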

How the data were processed

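Peaks of H3K4me3, H3K27ac and H3K27me3 in PANC-1 were used from 18 libraries, and the 6 input samples were not analysed here. Per the study's methods and the submitters' processing notes, the authors trimmed reads (Trim Galore 0.4.1), aligned them to hg19 (Bowtie2 2.4.1), removed duplicates with Picard and called peaks in each library against input with MACS2 2.2.7.1, narrow for H3K4me3 and H3K27ac and broad for H3K27me3. For each peak the authors deposited a score, its enrichment over input as a ratio, and its p-value and q-value as −log10. The lowest deposited −log10 q was 1.30 for narrow peaks, below the strictness the methods state. The lists hold no read counts, so depth is unknown and no interval that needs it is given.

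Covered bp were computed with NumPy 2.4.6 in Python 3.11.15 from GENCODE release 44 on GRCh37, whose sequence hg19 shares, and checked on simulated intervals against bedtools. log2(covered bp + 100) entered limma 3.58.1 (R 4.3.3; 3 groups in 1 fit, no block) over coding genes covered in at least 2 of 6 lists, with Benjamini-Hochberg adjusted p under 0.05, and tested on simulated data. Single values were compared by exact two-sided permutation tests. Libraries were grouped by their labels. Sequences were read from GRCh37. All 9 mucins are named. Of each other list up to 3 genes are named, those called by limma first, then by lowest mean H3K27ac rank, with up to 3 that have H3K27me3 in all lists and no H3K27ac. A gene that this rule names among the regulators is not reported here. The members and lists were chosen with earlier results of these data known. Alternatives changed the windows, the peaks used, the pseudocount, the filter, the centring, the libraries and the replicate block.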

Additional observations from a re-analysis of the deposited data

How the results depend on the processing

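Coverage of a peak list grows with its depth and quality, which are unknown, and 2 lists per group limit every comparison. H3K4me3 calls over coding genes (19 for TGFβ, 21 for depletion) went, for TGFβ and depletion, to 12 and 13 with windows of 2 kb, 124 and 188 with the 50% strongest peaks, 4 and 4 with lists of equal length, 48 and 55 with a pseudocount of 10 bp, 0 and 0 with 500 bp and 8 and 10 with centred libraries. For TGFβ alone they went to 9 without the filter and 4 with the 4 libraries of the comparison. With the replicate block they were 0 and 0, and with the crossed pairing, chosen after seeing the data, 0 and 0. The labels give the numbers no shared batch, and the correlations of same-numbered deviations were -0.41 and -0.28 for H3K4me3. Leaving out single libraries gave 0 to 0 for both. H3K27ac calls (0 and 0) became 3 and 3 without the filter, and H3K27me3 calls (0 and 0) 20 and 3. Leaving out single libraries gave 0 to 9887 H3K27ac calls for depletion, the highest without siPHF13+TGFβ replicate 2, where the lone replicate 1 is assumed to vary like the other groups.

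Mucin genes with groups apart changed as follows, with no share of coding genes computed for these alternatives. H3K4me3 with TGFβ (2) went to 1 with 2 kb and 2 to 6 without single libraries. H3K4me3 with depletion (2) went to 0 with 2 kb, 1 with 5′ ends alone and 3 to 7 without single libraries. H3K27ac with TGFβ (2) went to 0 with 5′ ends, 1 with the 50% strongest peaks, 1 with equal lists and 3 to 4 without single libraries. H3K27ac with depletion (1) went to 0 with 2 kb, 0 with 5′ ends, 0 with equal lists and 1 to 5 without single libraries. H3K27me3 with TGFβ (1) went to 3 with 5′ ends, 2 with the 50% strongest peaks, 3 with −log10 q of at least 3, 2 with equal lists and 1 to 8 without single libraries. H3K27me3 with depletion (6) went to 3 with −log10 q of at least 3 and 6 to 8 without single libraries. Leaving out a library makes groups easier to separate by construction. Mucin genes with a peak in all lists went from 4 to 2 for H3K4me3 with 2 kb, and 4 to 5 without single libraries. For H3K27ac they went from 2 to 1 with 2 kb, 1 with the 50% strongest peaks, 1 with −log10 q of at least 3, 1 with equal lists and 2 to 5 without single libraries. For H3K27me3 they went from 7 to 2 with 5′ ends and 1 with −log10 q of at least 3.

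The cluster differences ranged without single libraries from -0.079 to 0.94 for H3K4me3 with TGFβ, -1.48 to 0.040 with depletion, -0.40 to 0.22 and -4.02 to 0.24 for H3K27ac, and -0.21 to 1.26 and -2.07 to -0.38 for H3K27me3. The sign turned without siControl replicate 1 for H3K4me3 (-0.079) and H3K27me3 (-0.21) with TGFβ, without siControl+TGFβ replicate 2 for H3K27ac (0.22) and without siPHF13+TGFβ replicate 1 for the depletion values (0.040 and 0.24). With the 50% strongest peaks the H3K27ac difference with TGFβ was 0.16. Apart from the construction of these alternatives, the cause was not tested.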

Other observations

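MUC3A, MUC12 and MUC17, membrane mucins of the intestine that lie next to each other on chromosome 7, had peaks of all 3 modifications in all 6 lists each. H3K27me3 covered 15374 and 17323 bp of the MUC3A windows in the siControl lists, 17231 and 16712 bp in the siControl+TGFβ lists and 10856 and 16746 bp in the siPHF13+TGFβ lists. H3K27ac covered 312 to 579 bp of MUC3A, and its best peak ranked at 1.57% on average. MUC12 and MUC17 shared their H3K27ac, with 710 and 877, then 1299 and 1020, then 329 and 1625 bp, so they are not separate observations. H3K4me3 covered 2072 to 2965 bp at MUC12 and 957 to 1448 bp at MUC17. CD164, a sialomucin of many cell types, had H3K4me3 and H3K27ac in all 6 lists (mean best H3K27ac rank 2.87%) and H3K27me3 in siControl replicate 1 alone. Of the 13 mucin genes outside the 9 described, 6 had H3K4me3, 4 H3K27ac and 5 H3K27me3 in all lists.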
